A study of Mus musculus with 6 samples.

Results

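The replication-dependent histone genes of the mouse were taken as the protein-coding genes whose symbol begins with Hist1h to Hist4h in GENCODE release M21 on GRCm38. This rule found 67 genes, of which 65 had a row among the 48709 genes of the count table, and 58 had enough counts to be tested among 12722 genes. By genomic cluster, 54 of the 67 lie in Hist1 on chromosome 13, 10 in Hist2 on chromosome 3, 2 in Hist3 on chromosome 11 and 1 in Hist4 on chromosome 6. By product, 6 encode the linker histone H1, 18 encode H2A, 18 H2B, 12 H3 and 13 H4. Between cells given the CHD4-APR peptide and cells given the CTRL peptide, 9 of the 58 (15.5%) were lower and 0 were higher at an adjusted p under 0.05 (edgeR), where 17.9% of all genes tested were lower and 20.5% higher. Of the 9 genes 7 encode H2A, which became 2 when transcript length and GC content were corrected for and 4 without CHD4-APR replicate 3. All 9 lie in Hist1, and Hist1h1c, the member with the most counts, was not among them.

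RNA was sequenced from G1E-ER4, a mouse line of erythroid progenitors that came from embryonic stem cells. In both groups the cells carry a GATA1-ER transgene, in which the erythroid factor GATA1 is joined to the hormone-binding part of the estrogen receptor. Its product enters the nucleus once tamoxifen is added, and red cell differentiation then begins. The CHD4-APR group (3 libraries) received a Tat-linked peptide with the aggregation-prone region of the CHD4 C-terminus, and the CTRL group (3 libraries) a Tat-linked stretch of alanines. Each peptide was at 10 μM, and tamoxifen followed after 2 h for 28 h in both groups, at 100 nM by the culture protocol and at 100 μM by the design text. Nothing says that the libraries of a group came from separate cultures, so the p-values measure the spread between these libraries, which may be technical, and no untreated cells were analysed here.

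Histones package DNA into nucleosomes, each an octamer of H2A, H2B, H3 and H4, and H1 binds the linker DNA between them. The genes considered here lack introns in most cases, are transcribed mainly in S phase, and are the only known animal mRNAs that mostly end in a stem-loop in place of a poly(A) tail. The stem-loop is bound by SLBP, and the U7 snRNP directs the cut just behind it. A dividing erythroid precursor makes large amounts of these mRNAs and makes fewer as it leaves the cell cycle, when part of them can carry a poly(A) tail. The libraries were made from RNA captured on oligo-dT, which selects polyadenylated RNA, and changes in the tail cannot be told apart from changes in the amount of RNA.

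The stem-loop is shown first because the capture step bears on it. Of the 67 genes, 44 held a stem-loop of 16 bases in an annotated transcript, in 6 forms. The search pattern allowed more forms than these 6, and 194 of 141692 other transcripts (0.137%) matched it. The following stretches are read from the annotated transcripts on GRCm38, 5′ to 3′, with the stem-loop in capitals and 5 bases on each side. The first belongs to Hist1h1c, the member with the most counts (chr13:23739512-23739527, plus strand). The second belongs to Hist1h2ae, a lower H2A gene (chr13:23570668-23570683, minus strand). The third belongs to Hist1h2bb, the gene with the largest decrease (chr13:23747203-23747218, plus strand). The other stretches show the H4 forms in Hist1h4i (chr13:22040966-22040981, minus strand), Hist1h4h (chr13:23531458-23531473, plus strand) and Hist1h4j (chr13:21735437-21735452, plus strand).
Hist1h1c: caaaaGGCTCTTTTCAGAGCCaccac
Hist1h2ae: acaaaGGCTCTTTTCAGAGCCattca
Hist1h2bb: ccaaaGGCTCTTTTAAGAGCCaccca
Hist1h4i: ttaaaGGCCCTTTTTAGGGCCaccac
Hist1h4h: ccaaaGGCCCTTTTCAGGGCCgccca
Hist1h4j: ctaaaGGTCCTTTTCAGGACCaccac
The form of Hist1h1c and Hist1h2ae was held by 26 genes, of which 10 encode H2A, 8 H2B, 5 H3 and 3 H1. The form of Hist1h2bb was held by 6 genes, that of Hist1h4h by 7, that of Hist1h4i by 2 and that of Hist1h4j by 2, and the last 3 forms were found in H4 genes alone among the members. In 22 genes the annotated transcript ended within 100 bases behind the stem-loop, in another 22 it ran on farther, and in 23 it held no such sequence. An annotated transcript can stop before the stem-loop, so the 23 genes need not lack one. Those of Hist1h2ai and Hist1h2an, both lower, held only 393 bases. The median log2 fold change between the CHD4-APR and CTRL libraries was -0.29 in the 20 tested genes of the first class, -0.22 in the 18 of the second and -0.13 in the 20 of the third, and 3, 1 and 5 of them were lower, against 17.9% of all genes. With the length and GC offsets described below the medians were -0.0522, -0.1332 and 0.00, in another order. The differences between these classes were not tested.

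Many H2A and H2B genes start head to head and share the DNA between them. Promoter windows of RefSeq on GRCm38.p6 (250 bases before to 50 after the start) were matched for 62 of the 67 genes. A CCAAT box (CCAAT, searched like the others on both strands) stood in 85.5% of them against 37.4% of all 32851 windows, a TATA box (TATAAA) in 56.5% against 13.6%, and an octamer (ATTTGCAT) in 22.6% against 1.74%. A GATA site (AGATAA) stood in 21.0% against 11.2%. Every H1, H2A, H2B and H3 window held a CCAAT box, but only 3 of 12 H4 windows did, and the octamer stood in 7 H2A and 7 H2B windows alone. Matches to different motifs were counted separately also where they overlapped, and a match is not a bound site. Windows of head-to-head genes can overlap, so the same site can count in both, as does the octamer of Hist1h2ae and Hist1h2bg. The stretches below have these motifs in capitals. The first lies between the starts of Hist1h2ae and Hist1h2bg, a pair with unequal changes (chr13:23571221-23571395, plus strand). The next lies between Hist1h2ac and Hist1h2bc, the pair whose H2B gene was lower (chr13:23683949-23684198, plus strand). The last 2 are the 250 bases before the start of Hist1h2bb (chr13:23746484-23746733, plus strand) and of Hist1h4i, the H4 gene with the highest level (chr13:22041363-22041612, minus strand).
Hist1h2ae and Hist1h2bg: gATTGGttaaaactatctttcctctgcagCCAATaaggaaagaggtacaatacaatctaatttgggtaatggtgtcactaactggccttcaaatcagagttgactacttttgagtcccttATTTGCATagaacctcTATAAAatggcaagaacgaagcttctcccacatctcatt
Hist1h2ac and Hist1h2bc: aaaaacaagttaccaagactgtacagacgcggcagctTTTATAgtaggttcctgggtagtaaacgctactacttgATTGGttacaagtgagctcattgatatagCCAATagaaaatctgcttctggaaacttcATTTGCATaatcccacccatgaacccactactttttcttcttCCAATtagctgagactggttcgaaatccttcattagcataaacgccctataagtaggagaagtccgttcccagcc
Hist1h2bb: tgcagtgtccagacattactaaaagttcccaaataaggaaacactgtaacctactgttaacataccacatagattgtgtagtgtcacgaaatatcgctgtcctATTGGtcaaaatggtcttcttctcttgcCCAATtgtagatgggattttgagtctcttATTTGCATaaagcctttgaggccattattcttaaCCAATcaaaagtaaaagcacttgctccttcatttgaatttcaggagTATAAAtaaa
Hist1h4i: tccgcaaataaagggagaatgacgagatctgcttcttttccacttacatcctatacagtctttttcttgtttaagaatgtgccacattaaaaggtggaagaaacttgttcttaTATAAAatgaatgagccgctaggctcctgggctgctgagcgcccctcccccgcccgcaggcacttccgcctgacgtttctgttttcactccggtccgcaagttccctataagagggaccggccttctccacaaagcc
Among the H2A and H2B genes of Hist1 with a window, the octamer stood in 3 of the 8 lower genes and in 5 of the 15 tested genes without a call.

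The library totals lay between 41687482 and 49784177 counts, and the members together took 0.0323% to 0.0352% of a library, 14213 to 17002 counts. Levels are given as CPM, a gene's share of the library's counts on the scale of edgeR's cpm function, after TMM scaling, and all 14 erythroid markers examined were measured, with Gata1 at 1509 to 1900 CPM. Of the 14, 6 were lower and 2 higher, or 3 lower and 1 higher with the length and GC offsets described below, where 17.9% of all genes were lower and 20.5% higher, and 16.3% and 11.8% with the offsets. Their summed level was 72480 to 77790 CPM in the CTRL and 61880 to 65970 CPM in the CHD4-APR libraries, and its part in the histone values was not tested. The lower ones were the globin genes Hbb-bs (-0.33), Hbb-bt (-0.32), Hba-a1 (-0.25) and Hba-a2 (-0.24) and the factors Klf1 and Nfe2 (-0.17 each), and the higher ones were Tfrc (0.26) and Gata1 (0.21), all as log2 fold changes. With the offsets Hbb-bs, Hbb-bt and Nfe2 were lower and Gata1 higher. Of the markers of other blood cells, Itga2b was at 30.9 to 36.9 CPM and Spi1 at 157.7 to 201.3 CPM, with a log2 fold change of -0.24 for Spi1, or -0.0839 with the offsets, where it did not pass (adjusted p = 0.0989). Csf1r was at 3.14 to 4.67 CPM with -0.10 and did not pass. The megakaryocyte marker Pf4 had 7 to 23 counts and the lymphoid marker Cd79a 14 to 27. Their log2 fold changes were 0.44 and -0.03, and neither passed. Ppbp, Gp1bb, Mpo, Cd3e, Col1a1, Col1a2 and Dcn, which mark other cell types, were listed at 0 counts in all libraries.

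Hist1h1c, which encodes the linker histone H1.2, had the highest level of the members in the RNA captured on oligo-dT. How much of each member's RNA was captured is not known, so these levels do not rank the members by their amount in the cells. No difference between the groups was detected in Hist1h1c unless length and GC content were corrected for, when it was higher, as given below. It was at 131.3, 130.3 and 124.8 CPM in the CTRL libraries, and at 130.1, 132.5 and 127.8 CPM in the CHD4-APR libraries. The groups overlapped, and the log2 fold change was 0.01 with a standard error of 0.04 (adjusted p = 0.818, edgeR). It made up 35.2% to 37.8% of the members' counts in the CTRL libraries and 39.7% to 40.9% in the CHD4-APR libraries. Per kilobase of exon it reached 83.0 CPM over all libraries, ahead of Hist2h2aa2 (H2A) with 25.7, Hist1h2bc (H2B) with 25.4 and Hist1h2bk (H2B) with 22.2. Hist1h2ah, Hist1h2ai, Hist1h2ad and Hist1h2bg followed, between 15.0 and 11.9 CPM per kilobase. The H3 and H4 genes with the highest level per kilobase were Hist1h3i and Hist1h4i.

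The share of members called lower with the CHD4-APR peptide was near that of all genes. Of the 58 genes, 48 had a negative log2 fold change, and 34 with the length and GC offsets. No member was higher at an unadjusted p under 0.05 either, nor with DESeq2 or limma-voom. Of all 12722 genes tested, 38.4% passed in one direction or the other, against the 15.5% of the members. The median log2 fold change was -0.21 over the 58 genes and -0.01 over all genes tested. In 20 members (34.5%) all CHD4-APR libraries lay below all CTRL libraries, against 25.0% of all genes, and in 1, Hist2h2ab, all lay above, also against 25.0% of all genes. A filter on low counts leaves this count of 58 without the least abundant members, and in bulk RNA fewer cells that express a gene and less RNA per cell cannot be told apart.

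**Figure D1:**
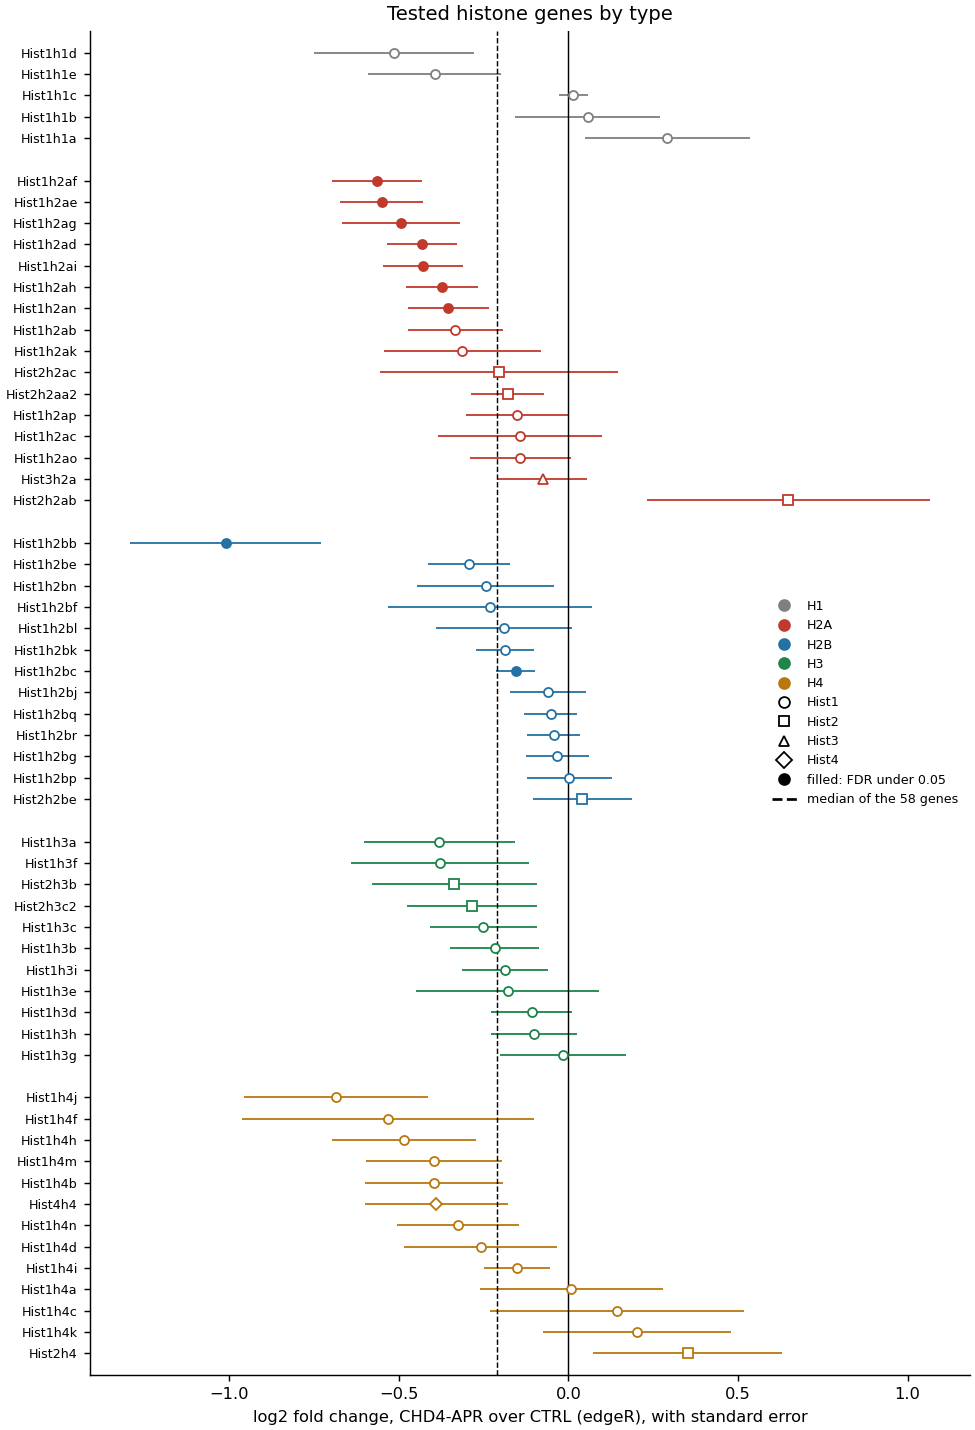
Log2 fold change (CHD4-APR over CTRL, edgeR, horizontal axis) of the 58 tested histone genes, grouped by type, with the standard error as a bar and the cluster as the shape. The filled points are the 9 genes with an adjusted p under 0.05, of which 7 encode H2A, and the dashed line is the median of -0.21.

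The 9 lower genes all lie in Hist1 and encode H2A (7 of 16 tested, 43.8%) or H2B (2 of 13, 15.4%), where 17.9% of all genes were lower. Over all of Hist1 the share was 18.4% (9 of 49). None of the 5 H1, 11 H3 and 13 H4 genes tested passed in either direction. At an unadjusted p under 0.05 these 3 types held Hist1h1d, Hist1h4j and Hist1h4h, all with negative values.

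Of the 7 lower H2A genes, whose products pair with H2B in the nucleosome, Hist1h2af and Hist1h2ae had the largest decreases. Hist1h2af was at 4.34, 4.05 and 3.58 CPM in the CTRL libraries and at 2.73, 2.81 and 2.56 CPM in the CHD4-APR libraries, a log2 fold change of -0.57 (standard error 0.13, adjusted p = 0.00279, edgeR). Hist1h2ae was at 5.55, 5.43 and 6.06 CPM in the CTRL libraries and at 3.29, 4.42 and 3.92 CPM in the CHD4-APR libraries, a log2 fold change of -0.55 (standard error 0.12, adjusted p = 0.00201). In both genes the groups did not overlap, and with the length and GC offsets the log2 fold changes were -0.36 for each (adjusted p = 0.04997 and 0.0309). Hist1h2ad and Hist1h2ai, also canonical H2A genes, were lower as well, but with the length and GC offsets they had log2 fold changes of -0.20 and -0.25 and no longer passed (adjusted p = 0.192 and 0.148). Hist1h2ad was at 7.88, 8.04 and 7.54 CPM with the CTRL peptide and at 5.84, 6.46 and 5.15 CPM with the CHD4-APR peptide (log2 fold change -0.43, adjusted p = 0.00334). Hist1h2ai was at 5.24, 5.57 and 5.94 CPM against 3.89, 4.75 and 3.81 CPM (log2 fold change -0.43, adjusted p = 0.00847). Both were lower in 3 of 3 CHD4-APR libraries.

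Hist1h2ah was at 7.20, 6.74 and 6.55 CPM in the CTRL libraries and at 5.01, 5.92 and 4.91 CPM in the CHD4-APR libraries (log2 fold change -0.37, adjusted p = 0.0105, edgeR). Hist1h2an was at 4.84, 4.38 and 4.64 CPM against 3.78, 3.79 and 3.26 CPM (log2 fold change -0.35, adjusted p = 0.0267). Neither gene's groups overlapped. Hist1h2ag was at 3.00, 2.41 and 2.95 CPM against 2.42, 1.94 and 1.57 CPM (log2 fold change -0.49, adjusted p = 0.0332). Its groups met, since CHD4-APR replicate 1 was as high as CTRL replicate 2, and this is the only one of the 9 genes with such an overlap. With the length and GC offsets Hist1h2ah, Hist1h2an and Hist1h2ag had -0.16, -0.16 and -0.26 and did not pass (adjusted p = 0.293, 0.354 and 0.289). None of these genes passed without CHD4-APR replicate 3. Hist1h2an and Hist1h2ag also failed without CTRL replicate 1 or CTRL replicate 3, and Hist1h2ag without CHD4-APR replicate 2. The H2A genes outside Hist1 did not pass: Hist2h2aa2 had a log2 fold change of -0.18 (adjusted p = 0.212) and Hist3h2a of -0.08 (adjusted p = 0.689). Hist2h2ab, at 0.142 to 0.217 CPM in the CTRL and 0.281 to 0.313 CPM in the CHD4-APR libraries, had the largest positive value of all members, 0.65 with a standard error of 0.42 (adjusted p = 0.240).

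Of the H2B genes, Hist1h2bb showed the largest decrease of all members, from a mean of 1.02 ± 0.12 to 0.501 ± 0.13 CPM (SD, n = 3). It was at 1.06, 0.891 and 1.11 CPM in the CTRL libraries and at 0.582, 0.351 and 0.572 CPM in the CHD4-APR libraries, so that the log2 fold change was -1.01 (standard error 0.28, adjusted p = 0.00886, edgeR). All CHD4-APR libraries lay below all CTRL libraries, at counts of 15 to 27 against 44 to 46. Hist1h2bc, the H2B gene with the most counts, was at 31.5, 31.1 and 30.1 CPM against 26.7, 28.6 and 27.9 CPM. Its groups did not overlap, but the log2 fold change was only -0.16 (standard error 0.06, adjusted p = 0.0442), and with DESeq2 the adjusted p was 0.0565. Hist1h2bk had -0.19 (adjusted p = 0.0941) and Hist1h2bg -0.03 (adjusted p = 0.817).

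**Figure D2:**
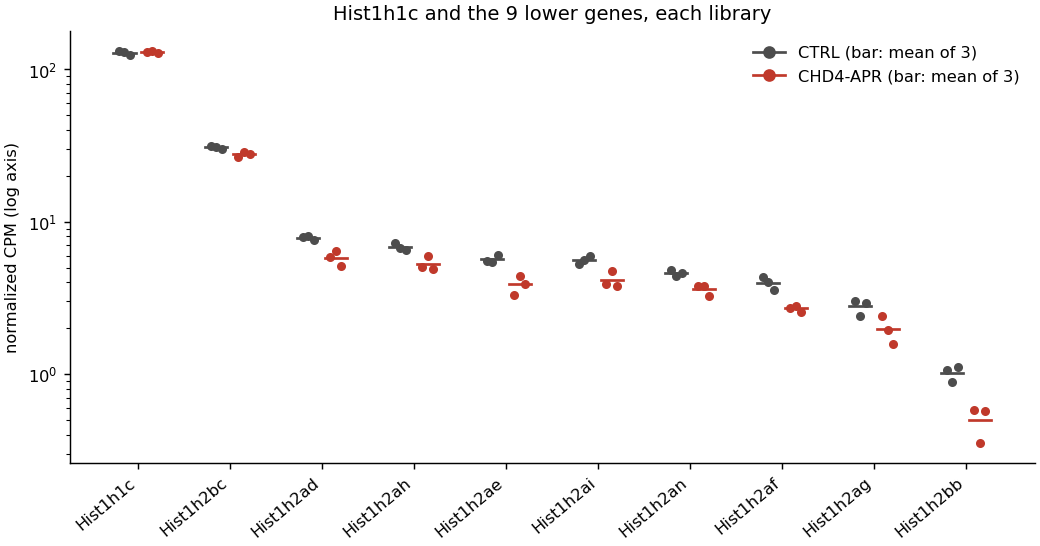
Normalized CPM (log axis) of Hist1h1c and of the 9 lower genes in each library, CTRL in grey and CHD4-APR in red, with a bar at the mean of 3. Hist1h1c overlaps at 124.8 to 132.5 CPM, while the groups stand apart in the lower genes except Hist1h2ag.

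No H4 gene passed. The median log2 fold change was -0.32, or -0.14 with the length and GC offsets, and 9 of 13 values were negative without them. In 6 of the 13 H4 genes (46.2%) all CHD4-APR libraries lay below the CTRL libraries, against 25.0% of all genes. Hist1h4j was at 0.992, 0.851 and 0.773 CPM against 0.492, 0.515 and 0.614 CPM, without overlap (log2 fold change -0.68, standard error 0.27, adjusted p = 0.0555, edgeR). Hist4h4, the only gene of its cluster, was at 1.18, 1.20 and 1.30 CPM against 0.940, 0.889 and 0.974 CPM, also without overlap (log2 fold change -0.39, adjusted p = 0.163). Hist1h4i had -0.15 (adjusted p = 0.239), and Hist2h4 had 0.35 (adjusted p = 0.347), the largest positive value after Hist2h2ab. The H4 genes other than Hist1h4i stood between 0.140 and 2.78 CPM, with standard errors of 0.18 to 0.43. The log2 fold changes of the 11 H3 genes were all negative, between -0.38 and -0.02 with a median of -0.22, but with the length and GC offsets the median was -0.0295, and Hist1h3b, Hist1h3g, Hist1h3h and Hist1h3i turned positive. None of the 11 passed in either fit, and Hist1h3i, with the highest level per kilobase, had -0.19 (adjusted p = 0.264). H1 genes spread to both sides, from -0.52 for Hist1h1d (adjusted p = 0.0953) to 0.29 for Hist1h1a (adjusted p = 0.374).

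Summed over its genes, H2A RNA was at 71.0, 63.6 and 68.3 CPM in the CTRL libraries and at 52.8, 58.5 and 51.3 CPM in the CHD4-APR libraries, a log2 ratio of the means of -0.32. H4 RNA summed to 22.3, 21.7 and 21.4 CPM against 18.8, 17.7 and 19.6 CPM (log2 ratio -0.22). The libraries of the groups did not overlap in either sum. H2B RNA was at 94.4, 96.7 and 98.6 CPM against 86.5, 89.6 and 91.3 CPM, also without overlap (log2 ratio -0.12). H3 RNA overlapped, with 29.1 ± 3.02 CPM (SD, n = 3) against 25.4 ± 2.24 CPM. H1 RNA overlapped as well, with 135.8 ± 1.68 CPM against 136.7 ± 3.48 CPM (SD, n = 3). All members together were at 344.3 to 354.4 CPM in the CTRL and 317.9 to 333.5 CPM in the CHD4-APR libraries. Without Hist1h1c the sums were 214.1 to 229.3 and 187.8 to 201.1 CPM, a log2 ratio of -0.20. These sums are descriptions and were not tested.

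**Figure D3:**
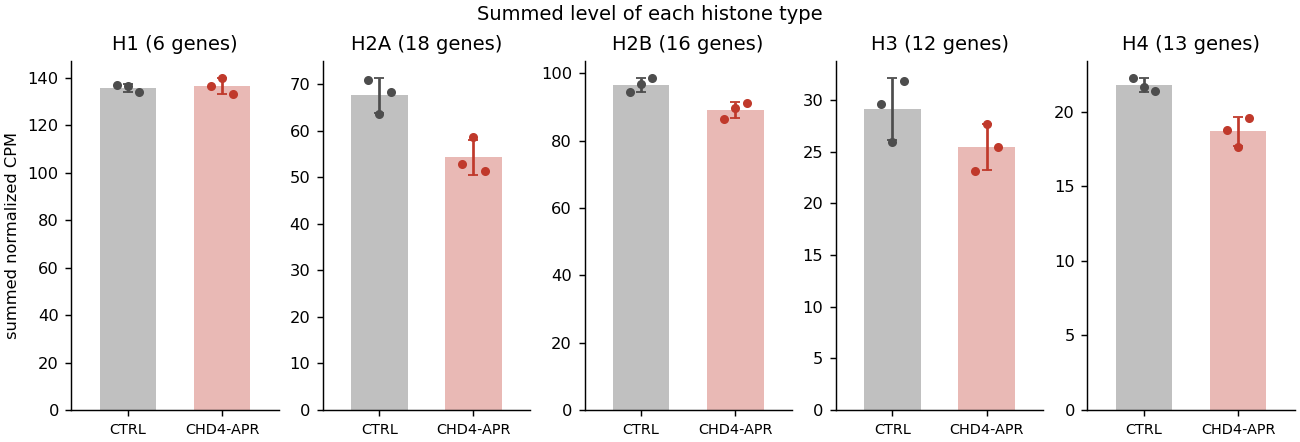
Summed normalized CPM of each histone type in the CTRL and CHD4-APR libraries, each panel with its own axis from 0. Bars are means of 3 libraries, error bars SD and points libraries. The sums of H2A, H2B and H4 do not overlap between the groups, and those of H1 and H3 do.

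By cluster, the log2 fold changes of the 49 tested Hist1 genes had a median of -0.23, and 42 were negative. The 7 tested Hist2 genes had a median of -0.18, with 4 negative and 0 called by edgeR, also at an unadjusted p under 0.05, and their sum overlapped at 21.0 to 26.7 CPM in the CTRL and 21.4 to 24.0 CPM in the CHD4-APR libraries. The Hist2 median turned positive without the filter on low counts, without CTRL replicate 3 and with the length and GC offsets described below. Splitting Hist1 where neighbouring genes start over 100 kb apart gave 4 blocks. The block from Hist1h2bl to Hist1h2br held 17 tested genes with a median of -0.19 and 2 lower. That from Hist1h2ah to Hist1h2bj held 5, with a median of -0.19 and 2 lower. That from Hist1h4h to Hist1h1a held 27, with a median of -0.26 and 5 lower, where 17.9% of all genes were. The lower genes thus lay in all 3 blocks with tested genes, and the remaining pair, Hist1h2ba and Hist1h2aa, both known as testis histone genes, was not tested.

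Within the head-to-head pairs the H2A gene usually had the more negative value. The annotation held 12 H2A and H2B pairs in this arrangement, 11 with both genes tested and 175 to 301 bases between the starts. In 10 of the 11 the H2A value was below that of its H2B partner. The median log2 fold change was -0.35 for the H2A and -0.06 for the H2B genes, and 6 H2A genes and 1 H2B gene were lower, against 17.9% of all genes. Hist1h2ae (-0.55) and Hist1h2bg (-0.03), which start on either side of the 175 bases printed above, were farthest apart. Hist1h2bg was at 7.51, 7.27 and 7.49 CPM in the CTRL and at 7.02, 6.95 and 7.77 CPM in the CHD4-APR libraries, which overlap. Hist1h2ag and Hist1h2bj had -0.49 and -0.06, and Hist1h2an and Hist1h2bp -0.35 and 0.00. The exception was Hist1h2ac with -0.14 beside Hist1h2bc with -0.16. The difference within pairs was not tested, and the H2A genes differ from the H2B genes in GC content, with medians of 64.3% and 53.7% over the tested genes.

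**Figure D4:**
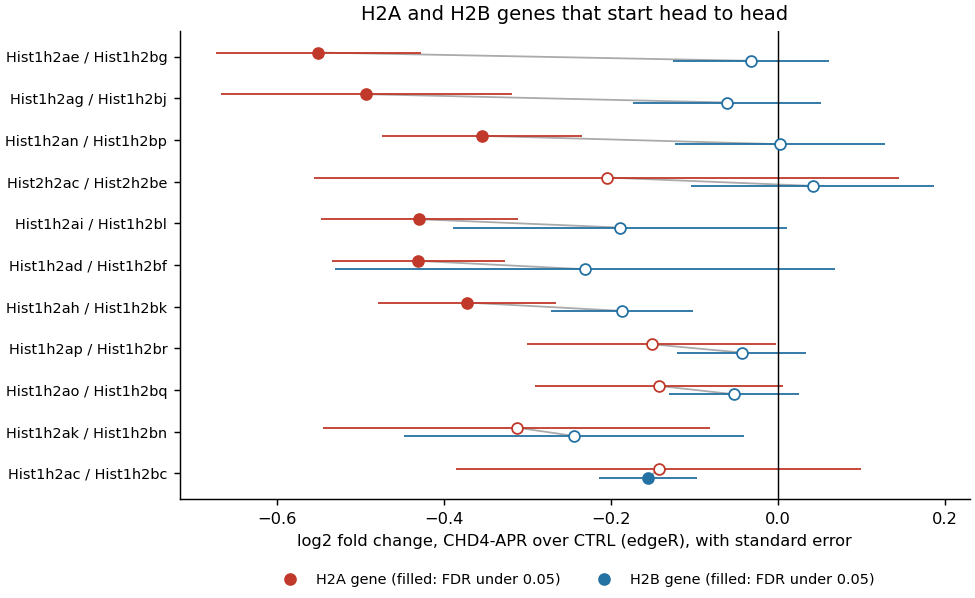
Log2 fold changes (CHD4-APR over CTRL, edgeR, horizontal axis) with standard errors of the 11 head-to-head pairs, the H2A gene in red and the H2B gene in blue, filled at an adjusted p under 0.05. The red point lies to the left of the blue one in 10 of 11 pairs.

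Length and GC content moved with these values. The tested members had a median exonic length of 536.5 bases and a GC content of 58.9%, against 3688 bases and 49.6% over all genes tested. Among the other tested genes of up to 1 kb, 22.1% were lower and 4.64% higher with a median log2 fold change of -0.18, and of those with at least 55% GC 33.6% were lower and 2.96% higher. When each library's trend on length and GC was passed to edgeR as an offset, the log2 fold change rose in 50 of the 58 members and the median became -0.06. Of the members, 6 were then lower and 1 higher, against 16.3% and 11.8% of all genes. Hist1h2ae, Hist1h2af, Hist1h2bb and Hist1h2bc stayed lower, and Hist1h2be and Hist1h1d, both with long annotated transcripts, joined them. The other 5 H2A genes no longer passed, with log2 fold changes between -0.26 and -0.16, so that 2 of 16 H2A genes were lower. Hist1h1c became the 1 higher gene, with a log2 fold change of 0.17 (adjusted p = 0.00275). In the pairs the H2A value was below its partner in 8 of 11 with the offsets, with medians of -0.16 and 0.01. The order turned in the pairs of Hist2h2ac, Hist1h2ao and Hist1h2ap, where the H2A value was now the higher one, and in that of Hist1h2ac and Hist1h2bc, now at -0.17 and -0.16.

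**Figure D5:**
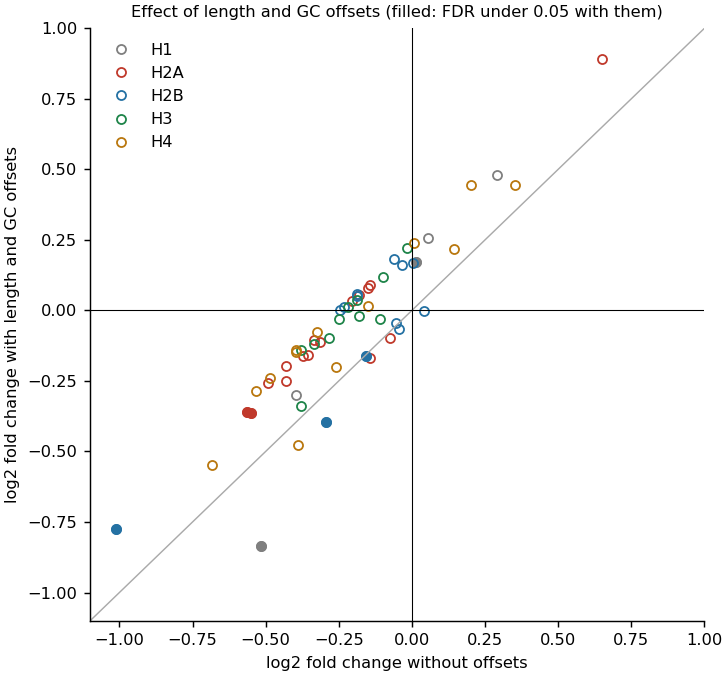
Log2 fold changes of the 58 tested genes without (horizontal axis) and with length and GC offsets (vertical axis), coloured by type, with a line of equality. Filled points had an adjusted p under 0.05 with the offsets. Most points lie above the line, and the median moves from -0.21 to -0.06.

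Sister genes share sequence, the treatment of reads that match several genes is not stated, and whether the counts of such genes are independent was not tested. Over the tested H2A genes, a median of 73.0% of the 50-base words of the transcripts also occurred in other genes, against 59.4% in H2B, 60.4% in H3, 39.5% in H4 and 2.25% in H1. In 6 of the 7 lower H2A genes, 67.1% to 89.0% of these words occurred in another of the 7, and in Hist1h2ae 38.5%. Some near-copies had near-equal counts: Hist1h2bq and Hist1h2br differed by at most 9 counts in any library, Hist1h2ao and Hist1h2ap by at most 6, and Hist1h4m and Hist1h4n by at most 13. Hist2h2aa2 had 555 to 718 counts while its copy Hist2h2aa1 had 0 to 2, and Hist2h3c2 had 70 to 129 while Hist2h3c1 had 0. The near-empty copies Hist2h2aa1 and Hist2h3c1 overlap Gm20634 with 6 to 16 counts, and Hist2h2aa1 also the antisense Gm20633 with 252 to 402 counts. Hist2h2aa2 overlaps the antisense Gm20632 with 252 to 367 counts. The part of these overlaps in the counts was not tested. Nested miRNA genes are annotated inside 17 of the 18 H2A genes and in no other member, and held 0 to 57 counts in a library. Hist1h2be overlaps Hist1h1e, and the library kit does not mark strand.

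Of the 67 members, 9 were not tested. Hist1h2bm and Hist1h2bh had no row in the table, and Hist1h2aa and Hist2h3c1 were at 0 in all libraries. Hist3h2ba, Hist1h1t, Hist1h2ba, Hist2h2aa1 and Hist2h2bb stayed at or below 0.223 CPM. A further 3 genes with such symbols, Hist1h2aj, Hist1h2al and Hist3h2bb-ps, are annotated as pseudogenes and were left out. Hist1h2aj nevertheless had 168 to 259 counts, within 27 of those of Hist1h2ai in each library.

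Genes that act on histone expression moved in both directions. Of 8 genes for histone transcription, 6 were higher and 1 lower with a median log2 fold change of 0.40, and 5 higher with 0 lower with the offsets. Of all genes, 20.5% were higher and 17.9% lower, and 11.8% and 16.3% with the offsets. NPAT and CASP8AP2 are factors of the histone locus body, where histone genes are transcribed, and cyclin E with CDK2 phosphorylates NPAT. Npat was at 14.8, 17.0 and 17.7 CPM in the CTRL and at 24.3, 26.4 and 23.9 CPM in the CHD4-APR libraries (log2 fold change 0.59, adjusted p = 1.81e-05, edgeR). Casp8ap2 had 0.45 (adjusted p = 0.000184), Ccne2 0.79 (adjusted p = 0.000886) and Pou2f1, which encodes the octamer factor OCT1, 0.51 (adjusted p = 3.21e-05). The lower gene was the other cyclin E gene, Ccne1, at 80.6 to 107.0 CPM far above Ccne2 at 1.75 to 4.31 CPM, with overlapping groups and a log2 fold change of -0.17 (adjusted p = 0.0375), which no longer passed with the offsets (adjusted p = 0.475). With the offsets the log2 fold change was 0.54 for Ccne2, 0.31 for Npat, 0.18 for Casp8ap2 and 0.17 for Pou2f1, and these still passed. In Npat, Casp8ap2, Ccne2 and Pou2f1 all CHD4-APR libraries lay above all CTRL libraries.

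Of 16 genes for the processing of the histone mRNA end, 7 were lower and 3 higher, and 9 lower and 0 higher with the offsets. The shares of all genes were 17.9% lower and 20.5% higher, and 16.3% and 11.8% with the offsets. Cstf2, a cleavage factor, had a log2 fold change of 0.38 (adjusted p = 0.000160, edgeR), and Ncbp2, the small cap-binding subunit, -0.23 (adjusted p = 0.00241). Snrpg, of the Sm ring, had -0.23 (adjusted p = 0.00766), and Srrt, the cap-associated protein ARS2, -0.22 (adjusted p = 0.00111). Slbp, whose product binds the stem-loop, was at 65.7, 76.0 and 73.5 CPM against 75.5, 82.8 and 84.3 CPM, with a log2 fold change of 0.17 (adjusted p = 0.0266). Its groups overlapped, through CHD4-APR replicate 1 and CTRL replicate 2, and with the offsets the value was -0.0051 (adjusted p = 0.953). Cstf2 did not pass with the offsets either (0.0866, adjusted p = 0.312). Of 6 genes for translation and decay of histone mRNA, Eri1, the exonuclease that trims behind the stem-loop, had 0.32 (adjusted p = 0.000261) and Tut7, a uridylyl transferase, 0.27 (adjusted p = 0.000265). Exosc10, of the nuclear exosome, had -0.15 (adjusted p = 0.0157), and with the offsets 0 of the 6 passed.

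Of 17 histone chaperone genes, 4 were higher and 2 lower, and 2 higher and 5 lower with the offsets, where 20.5% of all genes were higher and 17.9% lower, and 11.8% and 16.3% with the offsets. Atrx, a partner of DAXX in H3.3 deposition, had the largest value, 0.73 (adjusted p = 1.78e-06, edgeR), Mms22l had 0.19 and Hjurp, the chaperone of CENP-A, 0.16, while Tonsl, the partner of MMS22L, had -0.21 (adjusted p = 0.00127). With the offsets Atrx had 0.27, and Mms22l (0.0494, adjusted p = 0.596) and Hjurp (0.0665, adjusted p = 0.290) did not pass. Of 8 tested genes for replication-independent histone variants, H2afy was higher (0.24, adjusted p = 0.00382) and H2afj (-0.26, adjusted p = 0.00852) and H2afv (-0.19, adjusted p = 0.00839) were lower, and with the offsets 1 was higher and 1 lower. Of 25 S-phase genes 0 were lower and 4 higher, namely Mcm4 (0.39), Pola1 (0.38), Rrm1 (0.21) and Ccna2 (0.14), against 17.9% lower and 20.5% higher of all genes, and the median was 0.00. At an unadjusted p under 0.05, 1 of them was lower, and with the offsets none of the 4 named genes passed, while 3 others were lower and 1, Fen1, was higher. Of 8 RNAs without a poly(A) tail, only Terc, Rmrp and Rpph1 had enough counts, and 0 passed with edgeR, also at an unadjusted p under 0.05. Rmrp had 20, 19 and 23 counts in the CTRL and 52, 5 and 8 in the CHD4-APR libraries, and Rpph1 20, 10 and 18 against 45, 14 and 4, so that CHD4-APR replicate 1 was the highest in both. The part of polyadenylation, S phase and carried-over RNA in the histone values was not tested. Without CHD4-APR replicate 1 the median over the members was -0.15, and 8 members were lower.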

How the data were processed

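RNA of 6 libraries, 3 of G1E-ER4 cells with the CTRL peptide and 3 with the CHD4-APR peptide, was captured on oligo-dT and prepared with a kit that does not mark strand. The authors trimmed the reads with Cutadapt, aligned them with STAR 2.7.10a to GRCm38 and assigned them to Ensembl genes with featureCounts, and the deposited values are raw counts. The table has another 2 columns that fit no sample here, which were left aside. Strand setting and treatment of multi-mapped reads are not given in the sources used here. The labels give no sequencing batch.

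Genes were named by GENCODE M21, which held 48349 of 48709 identifiers. Counts were filtered with filterByExpr of edgeR 4.0.16 in R 4.3.3, scaled by TMM and compared by its robust quasi-likelihood test with no block for replicate number, and p-values were adjusted after Benjamini and Hochberg over 12722 genes and a threshold of 0.05. The common coefficient of variation was 0.0518. CPM per kilobase used exonic length. In the length and GC offsets, each library's log2 CPM (prior count 2) was smoothed with mgcv 1.9.3 on the length and GC of 12677 genes. Alternatives were DESeq2 1.42.0, limma-voom (limma 3.58.1), other scalings and filters, a replicate block and leaving out libraries. Fits were tested on simulated data, and no pair of replicates agreed within sampling noise.

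The members and lists were chosen with earlier results of these data known. Members named in full are those past the threshold, the 8 highest per kilobase, the highest of each cluster and type, and the 3 largest changes in each direction. By this rule at most 4 genes past the threshold are named from a list. The others, such as Slbp, Ccne1, Fen1 and part of the erythroid markers, were chosen after their values were seen. Protein sequences were not used here.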

Additional observations from a re-analysis of the deposited data

How the results depend on the processing

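The count of 9 lower members was 8 to 10 with DESeq2, limma-voom, the other scalings, the other filters and the replicate block, and 6 with length and GC offsets, of which 4 were among the 9. Leaving out 1 library at a time gave 5 to 9 lower members. It fell to 5 without CHD4-APR replicate 3, where Hist1h2ag, Hist1h2ah, Hist1h2an and Hist1h2bc no longer passed and 4 H2A genes remained. Hist1h2ae, Hist1h2af and Hist1h2bb passed under all 15 alternatives, the first 2 of these with adjusted p up to 0.0309 and 0.04997 and the third up to 0.0467. Hist1h2bc failed under 8, including each omission of a library, with adjusted p between 0.0219 and 0.165 over all alternatives.

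The number of higher members was 1 with the offsets, with or without the replicate block, and 0 otherwise. The median log2 fold change of all members was -0.0554 with the offsets and -0.0542 with the block and offsets, and -0.27 to -0.15 when libraries were left out. For Hist1 it was -0.0667 and -0.0639, and -0.27 to -0.16. For Hist2 it turned to 0.0329 and 0.0372 with the offsets, to 0.0234 without the low-count filter, and ranged from -0.32 to 0.11 (without CTRL replicate 3) when libraries were left out. With the offsets alone and with the block, Hist1h2bg turned to 0.159 and 0.158, Hist1h2bk to 0.0578 and 0.0574, Hist1h4i to 0.0151 and 0.0149, and Hist2h2aa2 to 0.0557 and 0.0597. Hist1h1c turned to -0.0022 with upper quartile scaling and ranged from -0.0080 to 0.034 without 1 library. Hist1h4j passed with upper quartile scaling (adjusted p = 0.0494) and under a minimum of 10 counts in each library (0.0379), as did Hist2h2aa2 without CTRL replicate 2 (0.00671). The cause of these shifts was not tested.

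The correlations did not settle whether the replicate numbers pair the samples. Deviations of same-numbered libraries correlated at 0.0697, 0.0552 and -0.035 across genes, and those of other combinations at -0.0808 to 0.0338. CTRL replicates 1 and 2 went best with the same-numbered CHD4-APR library, but CTRL replicate 3 went best with CHD4-APR replicate 2. The replicate block called 9 members, the same 9 genes, with a median of -0.21. Over all genes it called 2507 lower and 2772 higher, against 2275 and 2607 without it. Rare members had larger standard errors, with 0.28 for Hist1h2bb and 0.27 for Hist1h4j against 0.04 for Hist1h1c. The part of depth in this was not tested.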
